A study of Rattus norvegicus with 8 samples.

Results

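Cells exchange lactate with their surroundings and decide the fate of pyruvate through a small set of genes, and 6 of these are described here in cultured rat nucleus pulposus cells. They are the lactate transporter genes Slc16a1, Slc16a3 and Slc16a7, the lactate dehydrogenase subunit gene Ldhb, and the pyruvate dehydrogenase kinase genes Pdk1 and Pdk4. They were chosen by symbol, each symbol had 1 row, and all 6 were among the 4226 genes of the deposited table. The nucleus pulposus is the soft centre of the intervertebral disc. RNA-seq was made from 4 libraries labelled SOD1-K123R, in which SOD1, the copper-zinc superoxide dismutase, carries arginine in place of a lysine, and from 4 libraries labelled WT, called SOD1-WT here. By the design text, SOD1 was first knocked down in all cells and then supplied again by transfection in either form, and all cells were kept in 10 mM lactate for 7 days, so the controls carry the knockdown, the transfection and the lactate too. The labels do not state the age of the animals, the way SOD1 was knocked down or the number of separate cultures.

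Both groups were given lactate, which cells must import and oxidise if they are to use it as fuel. Monocarboxylate transporters of the SLC16 family carry lactate or pyruvate across the plasma membrane together with a proton. MCT1, the product of Slc16a1, works in either direction in many tissues, MCT4 (Slc16a3) is the main exporter of strongly glycolytic cells, and MCT2 (Slc16a7) has a high affinity and is best known for uptake. Inside the cell lactate dehydrogenase interconverts lactate and pyruvate, and tetramers rich in the LDHB subunit are known for running towards pyruvate. Pyruvate enters the mitochondrial citric acid cycle through the pyruvate dehydrogenase complex, which pyruvate dehydrogenase kinases switch off by phosphorylation and pyruvate dehydrogenase phosphatases switch on again. The nucleus pulposus has almost no blood vessels, and its cells are known to depend on glycolysis and to export lactate.

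In SOD1-K123R cells 2 of the 6 genes rose and 4 fell, beside 44.6% of all genes tested that rose and 51.1% that fell. Pdk4 had the largest fold of the 6, with 86.9 ± 7.47 TPM in SOD1-K123R and 5.92 ± 0.594 TPM in SOD1-WT (mean ± SD, n = 4 each, as for all such values). The transporters parted: Slc16a1 was 1.87 times as high in SOD1-K123R as in SOD1-WT, while Slc16a3 stood at 0.316 and Slc16a7 at 0.262 of the SOD1-WT mean. Ldhb stood at 0.292 and Pdk1 at 0.473 of the SOD1-WT mean. TPM corrects each gene's reads for the length of its transcripts and for the size of the library, so levels of different genes can be set side by side.

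A gene was called changed at a Benjamini-Hochberg adjusted p under 0.05 in limma, run on log2(TPM + 1) of the 2890 genes that averaged 1 TPM or more. All 6 genes passed that filter and the test, but so did 95.7% of the genes tested (44.6% higher and 51.1% lower in SOD1-K123R). SOD1-K123R and SOD1-WT libraries had no overlap in any of the 6 genes, and none in 91.4% of the genes tested. Among the 1896 genes with a mean of 5 TPM or more the balance turned, with 948 higher and 897 lower. That all 6 changed is therefore close to the background of this table. It does not hold the whole transcriptome, since its TPM sum to 187515 to 243393 per library, and only 8.44% of the tested genes had an absolute log2 fold change under 0.5. How the genes of the table were chosen is unknown, and other genes of the pathway, Ldha among them, were not analysed here.

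The groups follow the genotype labels. Sod1 itself was not analysed here, so a difference in its level and the substitution cannot be told apart. The table heads the SOD1-K123R columns L and the SOD1-WT columns Ctrl, which the labels do not expand, and if L stood for lactate the contrast would differ from the one named here. Library identifiers form 1 run per group, so handling and genotype cannot be told apart, and p-values measure the spread between libraries that may be technical repeats. Across the tested genes, libraries of 1 group correlated at 0.981 to 0.994 and libraries of different groups at 0.788 to 0.818. Of 14 nucleus pulposus markers looked up, 7 were in the table; 3 of these rose, 3 fell and Col2a1 was under 0.1 TPM in every library. Cd68, the 1 of 5 macrophage and leukocyte markers in the table, read 22.8 to 29.8 TPM in SOD1-K123R and 5.44 to 7.94 TPM in SOD1-WT, and its part in the results below was not tested. Scx and Thbs4, the 2 of 5 annulus and tendon markers in the table, summed to 17.0 to 21.7 TPM in SOD1-K123R and 34.6 to 55.15 TPM in SOD1-WT, and their part was not tested either. Muscle, where Pdk4 and Ldhb are abundant, was represented only by Acta1, the 1 of 10 muscle markers in the table. Acta1 read 0.15 to 0.56 TPM in SOD1-K123R and 0.72 to 1.51 TPM in SOD1-WT. Pecam1, the 1 endothelial marker in the table, stayed at 0.46 TPM or less in every library, and the erythroid markers were not analysed here. Of the bone markers Runx2 read 10.65 to 15.45 TPM in SOD1-K123R and 3.53 to 5.92 TPM in SOD1-WT, and Ibsp read 0.92 to 2.15 TPM in SOD1-K123R and 7.33 to 11.3 TPM in SOD1-WT. Fabp4, the 1 adipocyte marker in the table, read 10.8 to 16.4 TPM in SOD1-K123R and 6.34 to 14.2 TPM in SOD1-WT. The part of these markers in the results was not tested. In bulk RNA a change in cell make-up and a change of RNA per cell cannot be told apart.

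**Figure D1:**
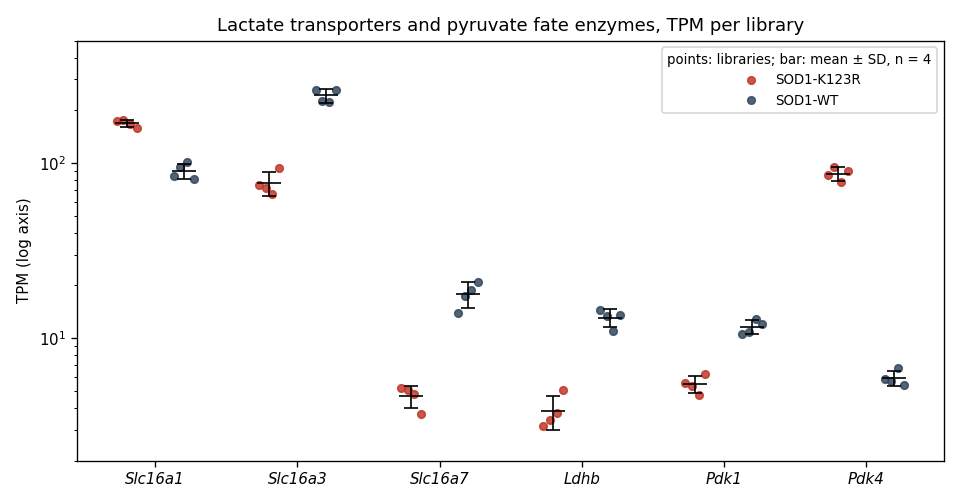
TPM of the 6 genes in each library on a log axis, SOD1-K123R in red and SOD1-WT in dark blue, with bars for the mean ± SD of 4 libraries. Slc16a1 and Pdk4 lie higher in SOD1-K123R, the other 4 genes lie lower, and no pair of groups overlaps.

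The promoters of the paralog pairs that moved apart are shown first, so that the genes can be compared by sequence as well as by level. They are the 250 bases before the transcription start in RefSeq's table for the GRCr8 rat assembly, 5′ to 3′ on the strand of the gene, in which all 6 genes were found. No source used here names the build behind the deposited table. The deposited TPM do not say which start the cells used. Capitals mark matches, on either strand, to the core of the HIF site (ACGTG), the E-box (CACGTG, which contains that core on both strands), the FOXO site (GTAAACA), the nuclear receptor half-site (AGGTCA), the GC box (GGGCGG) and the TATA box (TATAAA).
Slc16a1, chr2:194812410-194812659 (+ strand): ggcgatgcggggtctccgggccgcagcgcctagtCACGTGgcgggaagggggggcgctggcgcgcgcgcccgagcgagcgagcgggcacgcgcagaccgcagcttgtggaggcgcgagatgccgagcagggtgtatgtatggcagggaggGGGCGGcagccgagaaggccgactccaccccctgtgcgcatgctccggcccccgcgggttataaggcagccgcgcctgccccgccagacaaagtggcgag
Slc16a3, chr10:106712078-106712327 (+ strand): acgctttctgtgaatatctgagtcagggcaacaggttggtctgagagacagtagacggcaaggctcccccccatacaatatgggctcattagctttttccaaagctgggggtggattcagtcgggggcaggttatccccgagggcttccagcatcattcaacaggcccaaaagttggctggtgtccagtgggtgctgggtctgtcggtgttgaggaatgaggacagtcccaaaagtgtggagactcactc
Pdk4, chr4:34568330-34568579 (- strand): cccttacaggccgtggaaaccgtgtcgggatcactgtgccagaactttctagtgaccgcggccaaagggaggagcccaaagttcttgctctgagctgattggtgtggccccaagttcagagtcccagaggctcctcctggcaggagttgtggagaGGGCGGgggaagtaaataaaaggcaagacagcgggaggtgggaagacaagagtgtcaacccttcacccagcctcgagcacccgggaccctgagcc
Pdk1, chr3:77113264-77113513 (+ strand): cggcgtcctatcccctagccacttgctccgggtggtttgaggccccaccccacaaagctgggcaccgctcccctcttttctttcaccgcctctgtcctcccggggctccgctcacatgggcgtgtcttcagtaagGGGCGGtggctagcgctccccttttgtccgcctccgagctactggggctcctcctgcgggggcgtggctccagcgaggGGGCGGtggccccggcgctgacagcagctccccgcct

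The Slc16a1 sequence was rich in G and C (74.0%, against a median of 51.2% over 33469 promoters) and held 33 CpG dinucleotides, where the median was 5. Its E-box begins 216 bases before the start. An E-box was found in 6.42% of all promoters in the table and the HIF core in 19.3%, over 250 bases before and 50 after the start, which were searched for all genes. Both motifs hold a CpG, and their shares among promoters as rich in CpG as that of Slc16a1 were not computed. The Slc16a3 sequence had 54.0% G and C, 5 CpG and none of the 6 motifs in that window. Pdk4 (59.2% G and C, 9 CpG) had a GC box 95 bases before the start, and Pdk1 (69.2%, 19 CpG) had GC boxes beginning 115 and 37 bases before it. GC boxes were found in 33.1% of all promoters. Matches to the HIF core lay past the start in Pdk1, beginning at bases 22 and 31, and Slc16a1 had another beginning at base 6. Of the remaining genes, Slc16a7 had a HIF core beginning 239 bases before the start, and Ldhb had a nuclear receptor half-site beginning 137 bases before it (16.2% of all promoters) and a GC box beginning at base 3. Pdk4 had a further GC box beginning at base 33. No FOXO site (3.78% of all promoters) or TATA box (14.2%) was found in any of the 6. A match is a string of letters and was not tested for binding.

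Slc16a1, which encodes MCT1, read 174, 176, 167 and 159 TPM in SOD1-K123R replicates 1 to 4, against 84.4, 94.4, 101 and 81.2 TPM in SOD1-WT replicates 1 to 4. Every SOD1-K123R library was above every SOD1-WT library, and within SOD1-K123R the spread was small (coefficient of variation 4.60%, against 10.1% in SOD1-WT). The log2 fold change was 0.90 (95% interval 0.71 to 1.09, limma adjusted p = 6.36e-07), which ranked 834th among the increases of the 2890 genes.

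Slc16a3, the gene of the exporter MCT4, read 74.5, 72.3, 66.8 and 93.9 TPM in SOD1-K123R, against 263, 225, 224 and 261 TPM in SOD1-WT. The groups lay far apart, with SOD1-K123R replicate 4 the highest of its group. The log2 fold change was -1.65 (95% interval -1.89 to -1.42, limma adjusted p = 2.61e-08).

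Slc16a7, the gene of the high-affinity transporter MCT2, was the least abundant of the transporters. It read 5.19, 5.06, 4.77 and 3.70 TPM in SOD1-K123R, against 13.96, 17.5, 18.9 and 21.05 TPM in SOD1-WT. All SOD1-K123R libraries were lower, and replicate 4, high for Slc16a3, was here the lowest of its group. The log2 fold change was -1.73 (95% interval -2.03 to -1.42, limma adjusted p = 1.44e-07).

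The make-up of the transporter transcripts was thus different in the groups. Slc16a1 supplied 67.5% ± 3.76 of the summed TPM of the 3 genes in SOD1-K123R and 25.8% ± 3.45 in SOD1-WT. Slc16a3 supplied 30.7% ± 4.04 in SOD1-K123R and 69.1% ± 3.76 in SOD1-WT, and Slc16a7 supplied 1.87% ± 0.287 in SOD1-K123R and 5.09% ± 0.854 in SOD1-WT. The leading transporter was Slc16a1 in all 4 SOD1-K123R libraries and Slc16a3 in all 4 SOD1-WT libraries. A single factor per library, as in median-of-ratios scaling or equal sums, leaves these shares as they are, and they are descriptions of genes chosen with earlier results known. The summed level does depend on it: it was 250.2 ± 8.16 TPM in SOD1-K123R and 351 ± 12.96 TPM in SOD1-WT as deposited, a ratio of 0.713, but the ratio was 0.993 after median-of-ratios scaling and 0.572 with the libraries set to equal sums over the table. A fall of the total was therefore not established.

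**Figure D2:**
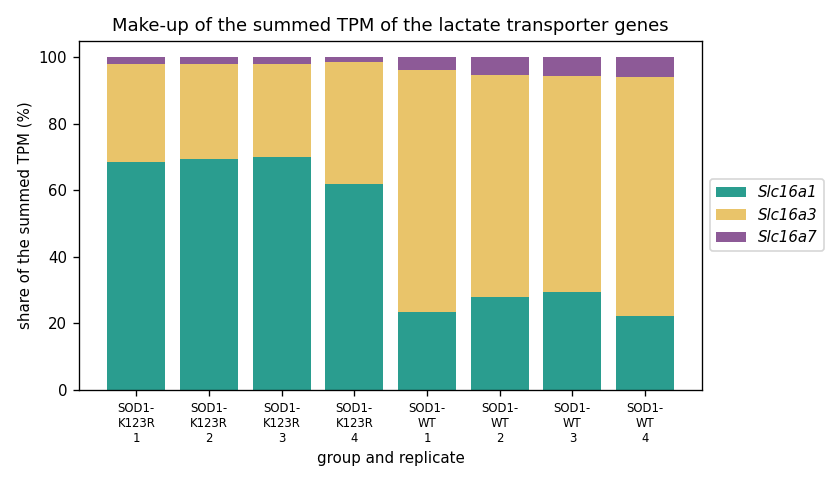
Share of the summed TPM of Slc16a1, Slc16a3 and Slc16a7 held by each gene, in percent, in each of the 8 libraries. Slc16a1 holds 61.9% to 70.0% in SOD1-K123R libraries and 22.4% to 29.4% in SOD1-WT libraries.

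Within each library the ratio of Slc16a1 to Slc16a3 TPM was 2.33, 2.43, 2.50 and 1.69 in SOD1-K123R, against 0.321, 0.420, 0.452 and 0.311 in SOD1-WT. The order of these genes was reversed between the groups, and replicate 4 had the smallest ratio of SOD1-K123R. On the scale of log2(TPM + 1) the ratio differed by 2.55. Slc16a7 and Slc16a3 kept a similar ratio: its log2 was -3.77 ± 0.376 in SOD1-K123R and -3.70 ± 0.295 in SOD1-WT, with overlapping ranges. The difference of -0.07 was smaller than the spread within either group, so these data do not separate the falls of Slc16a3 and Slc16a7. With 0.1 TPM added in place of 1, the difference was -0.24.

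**Figure D3:**
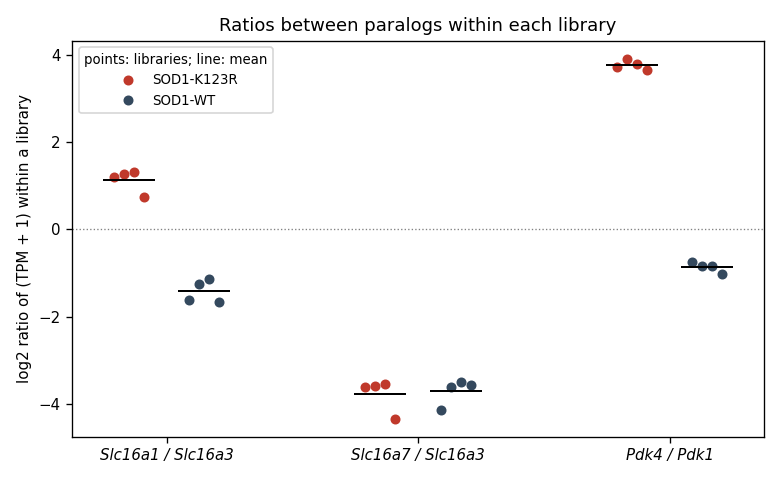
Log2 ratio of TPM + 1 between gene pairs within each library, with lines at group means. The ratios of Slc16a1 to Slc16a3 and of Pdk4 to Pdk1 lie above 0 in SOD1-K123R and below 0 in SOD1-WT, and those of Slc16a7 to Slc16a3 overlap.

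Other SLC16 genes were few in the table. Of 9 looked up, 4 were present and 2 were tested, of which 1 fell and 1 did not pass. Slc16a4, a member without a settled substrate, averaged 0.73 ± 0.251 TPM in SOD1-K123R and 2.86 ± 0.741 TPM in SOD1-WT (log2 fold change -1.15, limma adjusted p = 1.30e-05). Slc16a11 had 1.39 ± 0.218 TPM in SOD1-K123R and 1.02 ± 0.296 TPM in SOD1-WT (adjusted p = 0.0962), and it passed as higher after median-of-ratios scaling and after quantile normalization. Of the 5 SLC16 genes described here that were tested, Slc16a1 was the 1 that rose in the deposited TPM.

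Ldhb, which encodes the heart-type subunit of lactate dehydrogenase, read 3.13, 3.40, 3.73 and 5.06 TPM in SOD1-K123R, against 14.5, 13.4, 10.9 and 13.6 TPM in SOD1-WT. It was low in both groups and lower in every SOD1-K123R library. The spread was widest here among the 6 genes in SOD1-K123R (coefficient of variation 22.3%), with replicate 4 the highest. The log2 fold change was -1.55 (95% interval -1.86 to -1.25, limma adjusted p = 3.67e-07). Of 5 lactate dehydrogenase genes looked up, Ldhb was the 1 in the table, so the balance of subunits was not analysed here.

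Pdk4 encodes a pyruvate dehydrogenase kinase that is known to be induced by fasting and fatty acids in muscle and liver. It read 84.95, 94.8, 77.5 and 90.4 TPM in SOD1-K123R, against 5.87, 5.68, 6.76 and 5.38 TPM in SOD1-WT. The lowest SOD1-K123R library had 11.5 times the TPM of the highest SOD1-WT library. The log2 fold change was 3.67 (95% interval 3.45 to 3.88, limma adjusted p = 3.16e-11), the 8th largest increase among the 2890 genes tested.

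Pdk1, the kinase gene best known as a target of hypoxia-inducible factor 1, went the other way. It read 5.56, 5.35, 4.71 and 6.25 TPM in SOD1-K123R, against 10.5, 10.9, 12.8 and 12.04 TPM in SOD1-WT. The groups did not overlap. Its log2 fold change of -0.96 (95% interval -1.21 to -0.71, limma adjusted p = 4.47e-06) was the smallest of the 4 falls, and 1090 of the genes tested fell further.

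The kinase genes changed places. Pdk4 made up 94.1% ± 0.488 of the summed TPM of Pdk4 and Pdk1 in SOD1-K123R and 33.9% ± 2.10 in SOD1-WT. The ratio of Pdk4 to Pdk1 was 15.3, 17.7, 16.4 and 14.5 in SOD1-K123R, against 0.558, 0.521, 0.528 and 0.447 in SOD1-WT. Their sum was 92.4 ± 7.88 TPM in SOD1-K123R and 17.5 ± 1.46 TPM in SOD1-WT, and the kinase genes Pdk2 and Pdk3 were not analysed here.

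Pdp1, the gene of the phosphatase that reactivates the pyruvate dehydrogenase complex, was the 1 further gene in the table of 31 looked up for lactate transport, lactate dehydrogenase, the pyruvate dehydrogenase complex and other fates of pyruvate. It read 19.8, 19.6, 17.3 and 16.2 TPM in SOD1-K123R, against 7.33, 7.00, 9.15 and 6.74 TPM in SOD1-WT, with a log2 fold change of 1.17 (limma adjusted p = 9.16e-07). A kinase gene and the opposing phosphatase gene therefore rose together. The summed TPM of Pdk1 and Pdk4 was 5.10 ± 0.624 times that of Pdp1 in SOD1-K123R and 2.33 ± 0.193 times in SOD1-WT, with no overlap between libraries. This ratio was chosen after its values were seen.

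The order of levels was also rearranged. In SOD1-K123R it was Slc16a1, Pdk4, Slc16a3, Pdk1, Slc16a7 and Ldhb, from high to low. The ranges of Pdk4 and Slc16a3 overlapped there, as did those of Pdk1 with Slc16a7 and of Slc16a7 with Ldhb. In SOD1-WT the order was Slc16a3, Slc16a1, Slc16a7, Ldhb, Pdk1 and Pdk4. The ranges of Slc16a7 and Ldhb overlapped, as did those of Ldhb and Pdk1, and Pdk4 lay below all others in every library.

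Scaling of the libraries moved the sizes and not the directions. The median log2 fold change of all genes tested was -0.49 as deposited and shifted by 0.35 after median-of-ratios scaling, by -0.21 with equal sums and by 0.23 after quantile normalization. Over these settings the log2 fold change ran between 0.59 and 1.38 for Slc16a1, -1.24 and -0.53 for Pdk1, and 3.37 and 4.10 for Pdk4. It ran between -1.97 and -1.18 for Slc16a3, -2.003 and -1.29 for Slc16a7, and -1.83 and -1.13 for Ldhb. All 6 genes passed in each. Against the median of all genes tested, Slc16a1 stood 1.39 higher and Pdk1 0.47 lower in the deposited TPM. These offsets depend on the filter, since the median was 0.27 among the 1896 genes with a mean of 5 TPM or more.

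**Figure D4:**
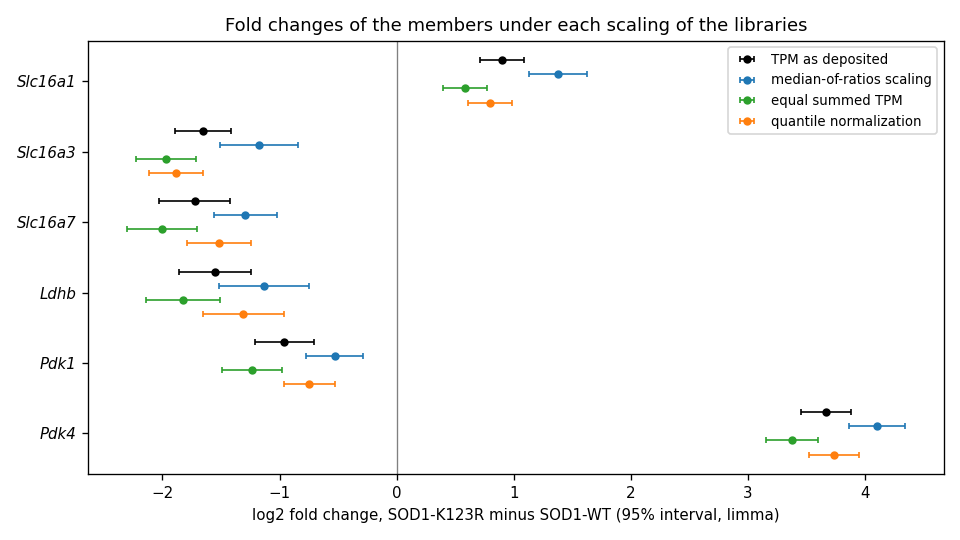
Log2 fold change, SOD1-K123R minus SOD1-WT, of each gene with its 95% limma interval, for the deposited TPM and 3 rescalings. Each gene keeps its side of 0 in all 4, and Pdk1 after median-of-ratios scaling lies nearest to it at -0.53.

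Glucose uptake and glycolysis supply pyruvate. Of 21 genes of these steps looked up, 6 were in the table and 5 were tested. All 5 rose, with a median log2 fold change of 1.65, beside 44.6% of all genes tested that rose. The 5 were glucose transporter genes, Hk2, Pfkfb3 and Pfkfb4, and no gene of an enzyme of the steps from glucose 6-phosphate to pyruvate. Pfkfb1, which was not tested, averaged 0.395 TPM in SOD1-K123R and 1.17 TPM in SOD1-WT. Slc2a1, the glucose transporter GLUT1, averaged 1096 ± 52.1 TPM in SOD1-K123R and 225 ± 6.37 TPM in SOD1-WT. Hk2, which traps glucose as glucose 6-phosphate, had a log2 fold change of 2.12 and Pfkfb3, which makes an activator of phosphofructokinase, of 1.65. Slc2a3, the glucose transporter GLUT3, and Pfkfb4 had log2 fold changes of 0.81 and 0.77. In the citric acid cycle 1 of 18 genes looked up was in the table: Idh3a, a subunit of NAD-dependent isocitrate dehydrogenase, averaged 23.8 ± 1.98 TPM in SOD1-K123R and 54.8 ± 5.72 TPM in SOD1-WT (log2 fold change -1.17).

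Genes known for the control of Pdk4, and targets shared with it, were looked up as well. Of 15 regulators 5 were in the table and 3 were tested, and all 3 rose. Foxo3 and Foxo1, transcription factors that are held out of the nucleus by insulin signalling, averaged 21.8 ± 1.30 and 8.99 ± 1.08 TPM in SOD1-K123R, against 8.47 ± 1.38 and 4.47 ± 0.374 TPM in SOD1-WT. Lpin1, a phosphatidate phosphatase and coactivator, averaged 11.7 ± 0.357 TPM in SOD1-K123R and 2.04 ± 0.602 TPM in SOD1-WT. Of 17 targets of PPAR or FOXO factors 7 were in the table and 6 were tested, and all 6 rose (median log2 fold change 1.30). Among them Txnip, which restrains glucose uptake, had a log2 fold change of 3.15, Ccng2, a cyclin of quiescent cells, of 2.72 and Klf9, a transcription factor, of 1.69. Plin2, a coat protein of lipid droplets, and Irs2, an adaptor of the insulin receptor, had log2 fold changes of 0.82 and 0.90. Fabp4 also passed, with overlapping groups, and did not pass with equal sums (adjusted p = 0.3).

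Slc16a3 and Pdk1 are known targets of hypoxia-inducible factor 1, and both fell. Of 20 HIF regulators and targets looked up 10 were tested, of which 8 rose and 2 fell (median log2 fold change 1.62). The 8 included the regulators Vhl, Arnt (log2 fold change 1.34) and Epas1 (1.06), and the list did not hold Slc16a3 or Pdk1. Those that rose included Hilpda, a lipid-droplet protein (log2 fold change 2.99), Ddit4, an inhibitor of mTOR signalling (2.67), Vegfa, the angiogenic factor (2.51), Ndrg1, a stress-response gene (1.62), and Vhl, which marks HIF for degradation (1.61). The 2 that fell, named after their values were seen, were Lox (-1.56), which crosslinks collagen, and Bnip3l (-1.09), a receptor for removal of mitochondria. The counts of these lists were taken beside 44.6% of all genes higher and 51.1% lower, and no test of a list was made.

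The table's own annotation linked some of the 6 genes. In KEGG, Slc16a3, Ldhb and Pdk1 belong to central carbon metabolism in cancer, and Ldhb and Pdk1 to HIF-1 signaling. Of the 7 other tested genes of central carbon metabolism 4 rose, 2 fell and Hk3 did not pass (adjusted p = 0.120). Those that fell were Mtor (log2 fold change -1.70) and Tigar (-1.59), named after their values were seen. Of the 16 other tested genes of HIF-1 signaling 9 rose, 6 fell and Hk3 again did not pass. With equal sums Hk3 passed as lower (adjusted p = 0.0114), and Prkca, counted among the 6, did not pass after median-of-ratios scaling (adjusted p = 0.198) or quantile normalization (adjusted p = 0.0910). These pathways were chosen after the values were seen.

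**Figure D5:**
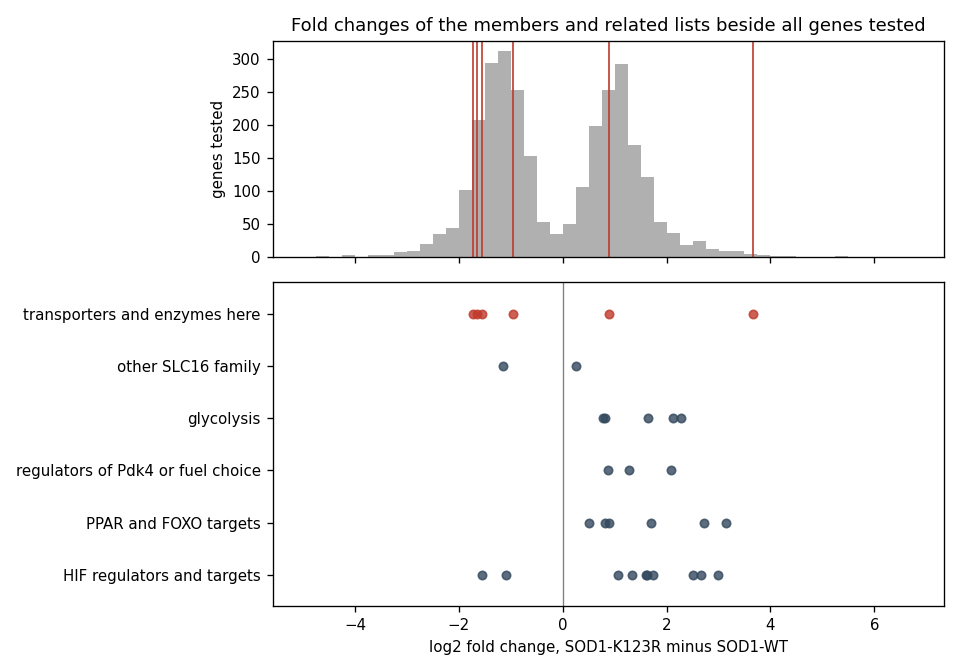
Top, number of tested genes by log2 fold change, SOD1-K123R minus SOD1-WT, with red lines at the 6 genes. Below, each tested gene of the related lists as a point: the 6 genes lie on both sides of 0, and the glycolysis genes, the regulators and the PPAR and FOXO targets lie above it.

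The tested genes with the most similar profile over the 8 libraries, by Pearson correlation of log2(TPM + 1), are given as a description. Genes without a symbol or with only a locus name were left out of this choice. Any gene that differs strongly between the groups in the same direction as a member correlates highly with it: 33.7% to 42.2% of the genes tested exceeded 0.9 with a given member. Pdk4 was nearest to Nptx1 (0.999), a neuronal pentraxin, and Rnf167 (0.999), a ubiquitin ligase. Slc16a1 was nearest to Clk1 (0.997), a kinase of splicing factors, and Gorab (0.997), a Golgi protein. Slc16a3 was nearest to Grk6 (0.999), a kinase of G-protein-coupled receptors, and Kiaa0930 (0.999), and Slc16a7 to Fbxl17 (0.997), an F-box protein, and Osmr (0.996), the oncostatin M receptor. Ldhb was nearest to Plbd2 (0.997), a lysosomal protein, and Armc6 (0.997), and Pdk1 to Pdss1 (0.999), an enzyme of coenzyme Q synthesis, and Snap29 (0.997), a membrane fusion protein. Grk6 had nearly the fold of Slc16a3, with 12.8 ± 1.88 TPM in SOD1-K123R and 43.3 ± 4.43 TPM in SOD1-WT.

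Libraries of a group varied little beside the difference between groups. Coefficients of variation were 4.60% to 22.3% in SOD1-K123R and 8.92% to 16.7% in SOD1-WT. Of the SOD1-K123R libraries, replicate 4 was the highest of its group for Slc16a3, Ldhb and Pdk1 and the lowest for Slc16a1 and Slc16a7. SOD1-WT replicate 3 was at the extremes as often, the highest of its group for Slc16a1, Pdk1 and Pdk4 and the lowest for Slc16a3 and Ldhb. No library of either group stood apart by Dixon's gap test for any of the 6 genes.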

How the data were processed

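RNA-seq of 8 libraries was analysed, with samples grouped by the genotype label. The authors deposited 1 table of TPM made with RSEM, per its name; the submitters' processing notes name DESeq2 without a role, and neither aligner, build nor annotation is stated there. TPM keep no depth, so no counting interval was set and the number of libraries limits the precision. Columns were matched to samples by the library names in the labels. The 2890 genes averaging 1 TPM or more were tested (1336 lay below), on log2(TPM + 1) with limma 3.58.1 in R 4.3.3 (SOD1-K123R minus SOD1-WT, eBayes with a trend, two-sided, Benjamini-Hochberg over all genes tested). Fold changes on this scale understate those of low genes. On simulated data for this comparison, run on 2890 genes, 58.0% of genes changed by 0.5 and 95.0% of those changed by 1 (log2) were recovered, and 3 of 2690 unchanged genes were called. The simulation changed only 200 genes, whereas 95.7% of the genes tested passed in the data, so these rates need not carry over. Text names the 6 genes, up to 6 genes per list (the 5 with the smallest p in larger lists) and the 2 most correlated genes of each member. For these last, genes without a symbol or with only a locus name were left out. Named outside this rule are cell type markers and Lox, Bnip3l, Arnt, Epas1, Fabp4, Trim63, Hk3 and Prkca. Fgfr2 falls under the rule and is not described. The result of 1 gene is not reported here. The members and lists were chosen with earlier results of these data known. Alternatives were the pseudocount, the filter, 3 rescalings, a replicate block, eBayes without a trend and leaving out each library.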

Additional observations from a re-analysis of the deposited data

How the results depend on the processing

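The 6 genes kept their direction and passed under all 16 alternatives; the highest adjusted p was 0.000553, for Pdk1 after median-of-ratios scaling. Leaving out 1 library gave log2 fold changes of 0.85 to 0.96 for Slc16a1, -1.75 to -1.59 for Slc16a3, -1.83 to -1.64 for Slc16a7, -1.67 to -1.48 for Ldhb, -1.02 to -0.90 for Pdk1 and 3.62 to 3.72 for Pdk4. When a mean of at least 5 TPM was required, 1896 genes were tested, 948 passed as higher and 897 as lower, in place of 1289 and 1476, and the median log2 fold change was 0.27 in place of -0.49. With a pseudocount of 0.1 the difference of the log2 ratio of Pdk4 to Pdk1 was 4.92 in place of 4.63. That of Slc16a7 to Slc16a3 was -0.24 in place of -0.07. The difference for Slc16a7 to Slc16a3 ran from -0.22 to 0.12 on leaving out 1 library and was positive without SOD1-K123R replicate 4. That library had a log2 ratio of -4.34, against -3.61 to -3.55 in the other SOD1-K123R libraries. Why its ratio was lower was not tested. Replicate numbers are shared between groups. Deviations of same-numbered libraries correlated at -0.35 to 0.05, and those of differently numbered libraries at -0.40 to 0.44. So few pairs cannot show whether same-numbered libraries were handled together. With a replicate block 1282 genes passed as higher and 1461 as lower, and all 6 genes still passed. The ratio of Ldhb to Ldha could not be formed because Ldha was not analysed here. TPM give no depth, and Ldhb, Slc16a7 and Pdk1, at 6.25 TPM or less in SOD1-K123R, are the least precise of the 6.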

Other observations

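Some genes of the lists lay below the filter of 1 TPM and were not tested. Slc16a9, an SLC16 gene linked to carnitine transport, averaged 1.22 ± 0.2004 TPM in SOD1-K123R and 0.25 ± 0.18 TPM in SOD1-WT, and Slc16a14, an orphan member, 0.562 ± 0.170 TPM in SOD1-K123R and 1.31 ± 0.275 TPM in SOD1-WT (mean ± SD, n = 4 each). Ppargc1b, a coactivator of mitochondrial genes, averaged 0.66 ± 0.0860 TPM in SOD1-K123R and 0.0625 ± 0.0695 TPM in SOD1-WT. Trim63, a ubiquitin ligase of muscle atrophy and a FOXO target, averaged 0.855 ± 0.268 TPM in SOD1-K123R and 0.15 ± 0.1985 TPM in SOD1-WT. Pfkfb1 averaged 0.395 ± 0.243 TPM in SOD1-K123R and 1.17 ± 0.154 TPM in SOD1-WT, the opposite order to Pfkfb3 and Pfkfb4. Prkaa2, a catalytic subunit of AMP-activated kinase, was lower in SOD1-K123R, with 0.02 ± 0.0231 TPM against 0.1225 ± 0.0222 TPM in SOD1-WT. It stayed at 0.15 TPM or less in every library.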
